A study of Mus musculus with 4 samples.

Results

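The Zic genes encode transcription factors with zinc fingers of the C2H2 type. Of this family, Zic1, Zic2, Zic4 and Zic5 were followed on 4 Affymetrix oligonucleotide arrays of mouse RNA, with 1 array for each kind of cell. All probe sets whose only gene symbol was one of these were taken, 8 of the 45101 probe sets and 4 of the 18193 genes measured. Zic1 and Zic4 had 2 probe sets each, Zic2 had 1 and Zic5 had 3.

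The array labelled HB9-GFP+ held cells sorted on day 8 from cultures of an ES cell line with a GFP reporter of HB9, the motor neuron factor encoded by Mnx1. The stated factors were sonic hedgehog at 200 uM, retinoic acid at 0.1 uM and purmorphamine at 0.2 uM, given on days 5 to 9, so their stated end falls after the stated sort. Another array held cerebellar granule cells of postnatal day 6, another sorted Sox1 neural stem cells and the last undifferentiated ES cells. Per the labels' protocols, the HB9 reporter ES cells grew on mitomycin C-treated embryonic fibroblasts with leukemia inhibitory factor. How the Sox1 cells were derived, and the strain of the mice, are not given in the sources used here. No group had a replicate, so each difference below is one between 2 arrays, without a test, and the number of arrays limits the precision.

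Zic proteins are relatives of the Gli factors, the effectors of hedgehog signalling, and share their DNA-binding zinc finger domain. They act in the dorsal neural tube, the midline of the forebrain, the neural crest and the cerebellum. Zic1 is a factor of cerebellar granule neuron precursors, and loss of the neighbouring ZIC1 and ZIC4 genes has been tied to the Dandy-Walker malformation of the human cerebellum. ZIC2 mutations cause human holoprosencephaly, and Zic5 has been linked to closure of the mouse neural tube and to neural crest.

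Signals are linear intensities, scaled by the submitters so that every array had the same trimmed mean. Values under a low level of 78.8, set by the mean of the arrays' median log2 signals, were put at that level for differences. A gene was called detected at 157.5, which is 1 log2 unit higher, and called higher or lower where the brighter signal passed detection and the difference was at least 4-fold. Where the dimmer signal was under the low level, the fold is a lower bound. The number of genes detected ran from 9330 to 9518 over the arrays, and the ratio of 3' to 5' signal of the actin control from 2.29 to 5.08, highest on the Sox1 array.

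The labels were set against marker genes. The array labelled HB9-GFP+ had 0 of 8 motor neuron markers detected, 9 of 9 pluripotency markers and 7 of 7 fibroblast markers, against 1 of 8, 9 of 9 and 1 of 7 on the ES array. Its markers therefore go against its label, and it is called by that label only. The granule array had 6 of 7 granule neuron markers detected, and the Sox1 array 8 of 8 neural stem cell markers. Neural stem cell markers passed detection elsewhere too, 6 of 8 in granule cells, 5 of 8 in ES cells and 4 of 8 under the label HB9-GFP+. Sox1 cells further had 7 of 9 pluripotency markers detected, though 8 of the 9 were called lower than in ES cells. Of 8 pan-neuronal markers, 7 were detected in Sox1 cells. The part of such other cells in the Sox1 Zic signals was not tested. The granule array also held markers of other cells of the cerebellum, with 6 of 6 astroglial, 5 of 6 Purkinje and interneuron, 5 of 5 oligodendrocyte lineage and 4 of 6 microglial markers detected. Fibroblast markers were not limited to the array labelled HB9-GFP+, since 6 of 7 were detected on the granule array too.

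All 4 Zic genes were detected on the granule array, and each had its highest signal there. Zic1, Zic2 and Zic5 were detected on the Sox1 array, while only Zic2 and Zic5 were detected in ES cells and also under the label HB9-GFP+. Zic2 and Zic5 were thus detected on all 4 arrays, at unequal levels, and Zic1 and Zic4 were undetected in ES cells. In RNA of many cells, fewer cells of a type and less RNA per cell cannot be told apart.

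**Figure D1:**
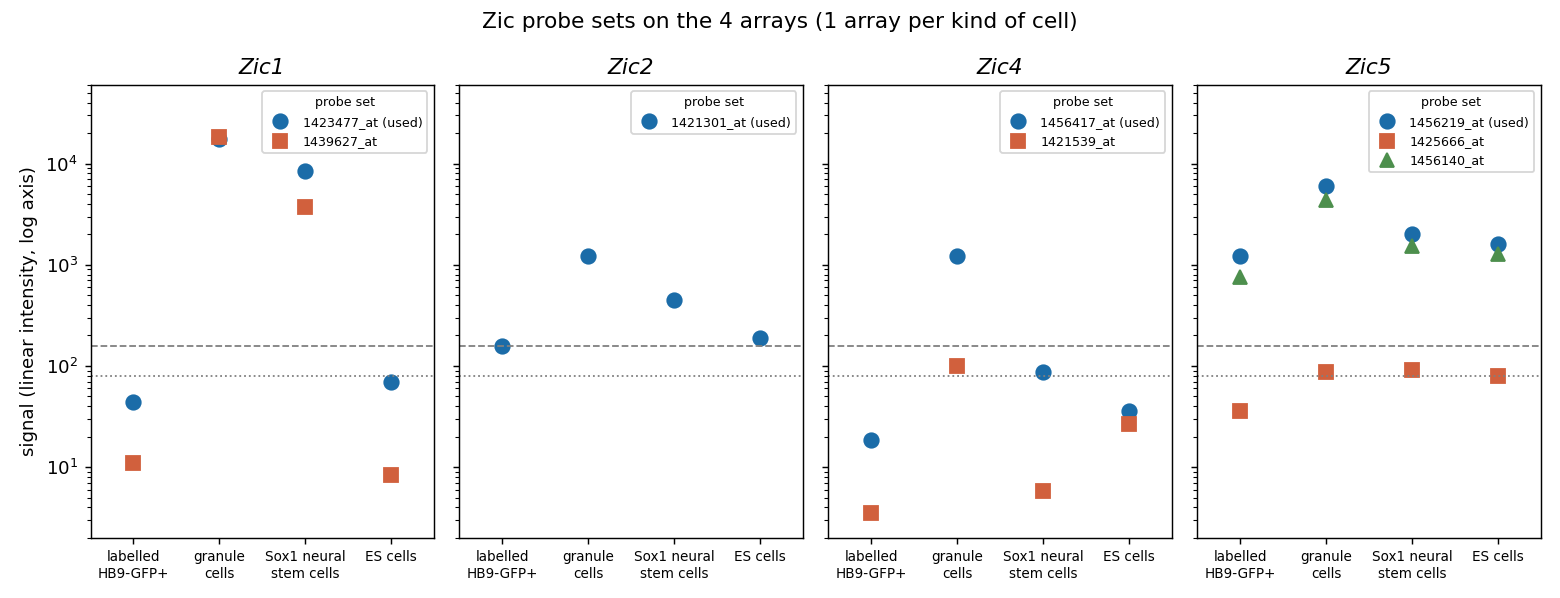
Signal of each Zic probe set (linear intensity on a log axis) on the array labelled HB9-GFP+, the granule cell array, the Sox1 neural stem cell array and the ES cell array, 1 point per probe set and array. The dashed line is the detection level of 157.5 and the dotted line the low level of 78.8. Zic1 lies far over both lines on the granule and Sox1 arrays and under both on the others, Zic4 passes detection on the granule array alone of the 4, and 2 of the Zic5 probe sets lie over detection on every array.

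Zic1, the granule precursor factor, had the widest span. Its brighter probe set had a signal of 44.3 on the array labelled HB9-GFP+, 17613.9 in granule cells, 8468.3 in Sox1 neural stem cells and 70 in ES cells. The other probe set read 11 on the array labelled HB9-GFP+, 18158.3 in granule cells, 3698 in Sox1 cells and 8.3 in ES cells. Both probe sets were high on the granule and Sox1 arrays and under the low level on the other 2, which have no order between them. Against ES cells, Zic1 was at least 223.6-fold higher in granule cells and at least 107.5-fold higher in Sox1 cells. The other probe set gave at least 230.6-fold and at least 47.0-fold. Between granule and Sox1 cells the probe sets fell on different sides of the threshold, at 2.08-fold higher in granule cells on the brighter one and 4.91-fold on the other. The array labelled HB9-GFP+ differed from the Sox1 array by at least 107.5-fold and from the granule array by at least 223.6-fold, lower in both cases.

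Zic4, which lies beside Zic1, was under the detection level in Sox1 cells, though over the low level. Its brighter probe set had signals of 18.7 on the array labelled HB9-GFP+, 1212.6 in granule cells, 87.1 in Sox1 cells and 36 in ES cells. The second probe set read 3.5 on the array labelled HB9-GFP+, 100.4 in granule cells, 5.8 in Sox1 cells and 26.8 in ES cells, and passed detection on 0 arrays. On both probe sets granule cells had the highest signal, and the 3 other arrays stood under the detection level. Zic4 was at least 15.4-fold higher in granule cells than in ES cells on the brighter probe set. With the mean of both probe sets, the log2 difference was 2.15 in place of 3.94, just past the threshold. Zic4 was called higher in granule cells than in Sox1 cells too, with a Sox1 signal between the low level and detection. Zic1 thus passed the threshold between Sox1 and ES cells where Zic4 was detected in neither. With the low level 1 log2 unit lower, Zic4 counted as detected in Sox1 cells, with a log2 difference of 1.15 from ES cells that stayed short of 4-fold. A test of that difference needs replicates, and none was made.

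Zic2, the holoprosencephaly gene, was measured by 1 probe set. It read 159.2 on the array labelled HB9-GFP+, 1233 in granule cells, 446.6 in Sox1 cells and 187.5 in ES cells. The order was granule, Sox1, ES and the array labelled HB9-GFP+, the last just over the detection level. Zic2 was 6.58-fold higher in granule cells than in ES cells, and 7.74-fold lower on the array labelled HB9-GFP+ than on the granule array. Granule cells were 2.76-fold over Sox1 cells and Sox1 cells 2.38-fold over ES cells, steps that fell short of 4-fold. The step between the array labelled HB9-GFP+ and ES cells was -0.24 on the log2 scale. It was smaller than the pooled SD of 0.60 among probe sets of the same gene in that comparison. That SD is a spread between probe sets and holds no error between replicate arrays.

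Zic5, the partner of Zic2 on chromosome 14, had a narrower span of signals over the 4 arrays than the other members. Its brightest probe set read 1235.4 on the array labelled HB9-GFP+, 6041.2 in granule cells, 2005 in Sox1 cells and 1587.6 in ES cells. A second read 760.4 on the array labelled HB9-GFP+, 4362.1 in granule cells, 1537.5 in Sox1 cells and 1282.1 in ES cells. Both probe sets gave the order granule, Sox1, ES and the array labelled HB9-GFP+, as did Zic2. Granule cells stood 3.81-fold over ES cells on the brightest probe set and 3.40-fold on the second, both just short of 4-fold. Against granule cells the array labelled HB9-GFP+ was 4.89-fold lower, or 5.74-fold on the second probe set. Sox1 and ES cells differed by 0.34 on the log2 scale, less than the pooled SD of 0.56 among probe sets of a gene. The array labelled HB9-GFP+ differed from ES cells by -0.36 on the brightest probe set, against a pooled SD of 0.60, and by -0.75 on the next. The remaining Zic5 probe set was detected on 0 arrays, at 36 on the array labelled HB9-GFP+, 88 in granule cells, 91.4 in Sox1 cells and 78.8 in ES cells.

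**Figure D2:**
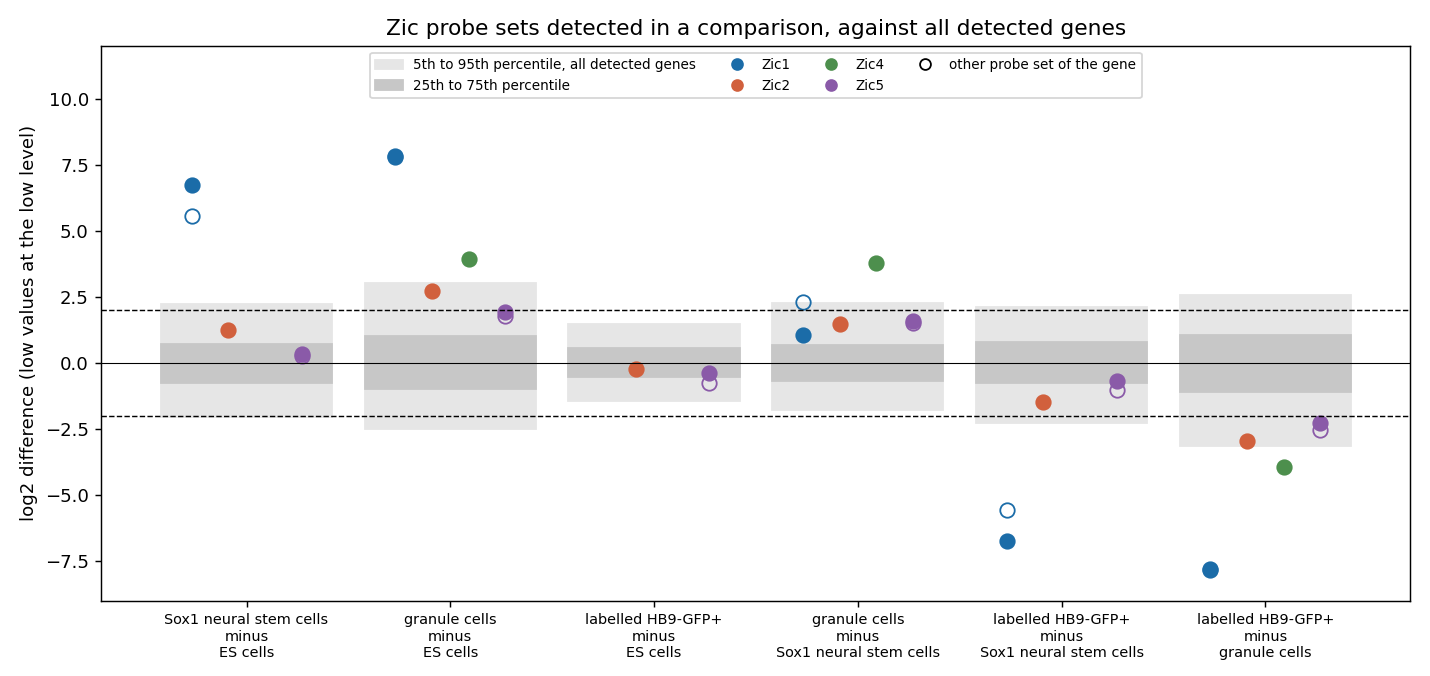
Log2 difference of each Zic probe set in the 6 comparisons, where it was detected on either array, with low values at the low level. Filled points are the probe set that represents the gene and open points its others, grey boxes span the 5th to 95th and the 25th to 75th percentile of all detected genes, and dashed lines mark 4-fold. The probe set that represents Zic1 lies outside the boxes in the 4 comparisons that set granule or Sox1 cells against ES cells or the array labelled HB9-GFP+, while Zic5 lies within the wider box in all 6.

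The comparison of granule cells with ES cells sets early postnatal cerebellar cells against the pluripotent state. Of 4 Zic genes, 3 were higher (Zic1, Zic2 and Zic4) and 0 lower, with Zic5 just under the threshold. Over all genes detected on either array, 11.3% were called higher, 8.27% lower and 19.6% in either direction. The median log2 difference of the 4 was 3.33, with Zic1 and Zic4 at their bounds, against -0.09 for all detected genes. At least 725 of the 10970 detected genes were higher by as much as Zic2 or more, and at least 1307 by as much as Zic5.

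In Sox1 neural stem cells against ES cells, 3 members were detected on either array, and of these 1 was higher (Zic1) and 0 lower, where 6.2% of all detected genes were called higher and 5.21% lower. All 5 detected probe sets of the family, which measure these 3 genes and are not replicates, had a higher signal in Sox1 cells. Those of Zic5 did so by only 0.34 and 0.26 on the log2 scale, under the pooled SD of 0.56 among probe sets of a gene. The median log2 difference of all detected genes was -0.02. In granule cells against Sox1 cells, 1 of 4 was higher (Zic4) and 0 lower, with 6.39% of all detected genes called higher and 3.65% lower. All 6 detected probe sets, which measure the 4 genes and are not replicates, had a higher signal in granule cells. The median log2 difference of the members was 1.53, against -0.07 for all detected genes. These 3 comparisons share arrays and are not independent.

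The array labelled HB9-GFP+ was set against each of the others. Against ES cells, 0 of 2 detected members were called in either direction, where 2% of all detected genes were called higher, 1.46% lower and 3.46% in either direction. Few genes of any kind differed between these arrays, and 0 of 9 pluripotency markers did, so the count is no result about the family. Against Sox1 cells 1 of 3 was lower (Zic1), with 6.89% of all detected genes called lower. Against granule cells 4 of 4 were lower, with 12.3% of all detected genes called lower, 9.21% higher and 21.6% in either direction. Against ES cells, all 3 detected probe sets had a lower signal than on the ES array, but they measure only 2 genes and are not replicates. The median log2 difference of all detected genes was 0.04 there. The markers of this array go against its label, as given above, so these values are not given as those of motor neurons.

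Astroglial markers and Purkinje and interneuron markers shared the granule maximum of the Zic signals. On the other arrays most of these markers were undetected, so the order of their sums there is not read. The summed signal of the 6 astroglial markers reached 520.8 on the array labelled HB9-GFP+, 20882.8 in granule cells, 662.3 in Sox1 cells and 765.9 in ES cells. That of the 6 Purkinje and interneuron markers reached 812.7 on the array labelled HB9-GFP+, 10232.3 in granule cells, 459 in Sox1 cells and 372.2 in ES cells. The granule array was highest for both, as it was for every Zic gene, and the part of these cells in the Zic signals was not tested. Meninges also express Zic genes. Of 5 meningeal and choroid markers 0 were detected on the granule array, but of 7 fibroblast markers, genes of connective tissue, 6 were. The summed fibroblast signal was 4825.8 in granule cells and 743.3 in ES cells, and 3 of those genes were called higher in granule cells, among them the collagen gene Col3a1 at 2387.6 in granule cells and 20.6 in ES cells. The part of connective tissue in the granule Zic signals was not tested. On the Sox1 array 2 of those 5 were detected, Crabp2 at 12979.2 and Ttr at 1062.6, while Foxc1 at 127.9 and Foxd1 at 93.4 were not. Their part in the Zic1 signal of that array was not tested.

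The genes lie in 2 couples in the mouse genome. In the RefSeq annotation of GRCm38.p6, Zic1 and Zic4 lie side by side on chromosome 9 with overlapping annotated spans and no gene listed between them, and Zic5 and Zic2 on chromosome 14 with the long noncoding RNA gene 2610035F20Rik between them. The listed starts of Zic1, on the minus strand, and Zic4, on the plus strand, are 3204 bases apart. Only 1 start was listed for each gene, so windows at any other annotated start are not shown. Promoters were looked up by symbol in RefSeq's table for that build, and 3 of the 4 members matched. They are shown because Zic1 and Zic4 differ in Sox1 cells while lying next to each other, with Zic5 for contrast. Each runs from 250 bases before the listed start to 50 after it, 5′ to 3′ on the gene's strand. Capitals mark matches on either strand to the GC box GGGCGG, the CCAAT box CCAAT or the TATA box TATAAA.
Zic1, chr9:91365719-91366018, minus strand: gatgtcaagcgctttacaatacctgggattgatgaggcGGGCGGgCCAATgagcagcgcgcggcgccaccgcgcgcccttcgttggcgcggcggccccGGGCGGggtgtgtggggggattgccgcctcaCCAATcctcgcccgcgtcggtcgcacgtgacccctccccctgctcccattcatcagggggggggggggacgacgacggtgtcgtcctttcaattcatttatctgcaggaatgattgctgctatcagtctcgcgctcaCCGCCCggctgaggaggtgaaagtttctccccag
Zic4, chr9:91368722-91369021, plus strand: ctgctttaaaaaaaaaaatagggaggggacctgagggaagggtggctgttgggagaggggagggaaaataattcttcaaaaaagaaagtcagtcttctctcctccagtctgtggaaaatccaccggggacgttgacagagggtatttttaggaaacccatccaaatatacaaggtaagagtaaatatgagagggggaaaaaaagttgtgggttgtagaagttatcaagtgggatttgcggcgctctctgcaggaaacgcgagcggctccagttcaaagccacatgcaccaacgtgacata
Zic5, chr14:122465609-122465908, minus strand: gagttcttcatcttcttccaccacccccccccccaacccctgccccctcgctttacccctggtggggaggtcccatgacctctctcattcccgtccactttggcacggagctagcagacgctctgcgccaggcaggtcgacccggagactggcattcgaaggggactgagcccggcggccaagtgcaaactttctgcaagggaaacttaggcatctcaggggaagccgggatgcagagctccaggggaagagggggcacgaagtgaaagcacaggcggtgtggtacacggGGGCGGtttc
The Zic1 window held 31 CpG dinucleotides and 65.3% G and C, with 3 GC boxes and 2 CCAAT boxes. The Zic4 window held 8 CpG and 46.0% G and C, with 0 matches to the 3 boxes, and the Zic5 window 15 CpG and 62.7% G and C, with 1 GC box. Of 32851 such windows, the GC box occurred in 35.7%, the CCAAT box in 37.4% and the TATA box in 13.6%. At least as many CpG as in the Zic1 window were held by 10.6%, as in that of Zic4 by 48.65% and as in that of Zic5 by 34.6%. The median over all windows was 7 CpG, near that of Zic4. The letters CCTGCTG, a core reported for Zic binding, were found on neither strand of the 3 windows and in 10.5% of all windows. The arrays measured no binding or methylation, and a match or its absence is a description of these letters only.

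The genes around each couple were read as well, taking the 3 nearest measured genes on each side. At the Zic1 and Zic4 couple, 0 of 6 neighbours were called higher in granule cells than in ES cells, and 3 of them were detected on 0 arrays. At the Zic2 and Zic5 couple, 1 of 6 neighbours was called higher, the long noncoding RNA gene Gm5089. Over all detected genes 11.3% were called higher in this comparison, and undetected neighbours could not be called. The counts are therefore no result about the neighbours as a set. Gm5089 was detected on the granule array alone. It read 26.1 on the array labelled HB9-GFP+, 2511.4 in granule cells, 87.8 in Sox1 cells and 37.2 in ES cells, at least 31.9-fold higher in granule than in ES cells. The gene between Zic5 and Zic2, 2610035F20Rik, was also detected on the granule array alone, at 240.5, with 23.7 on the array labelled HB9-GFP+, 32.8 in Sox1 cells and 41 in ES cells. That difference fell short of 4-fold with low values at the low level. Both RNAs were measured by 1 probe set each, and they followed the granule signal of Zic2 and Zic5 but not their detection in ES cells. Pcca, a mitochondrial carboxylase subunit gene beyond Zic2, was detected on all 4 arrays, at 1090.9 on the array labelled HB9-GFP+, 1844.6 in granule cells, 1040.4 in Sox1 cells and 1112.9 in ES cells.

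**Figure D3:**
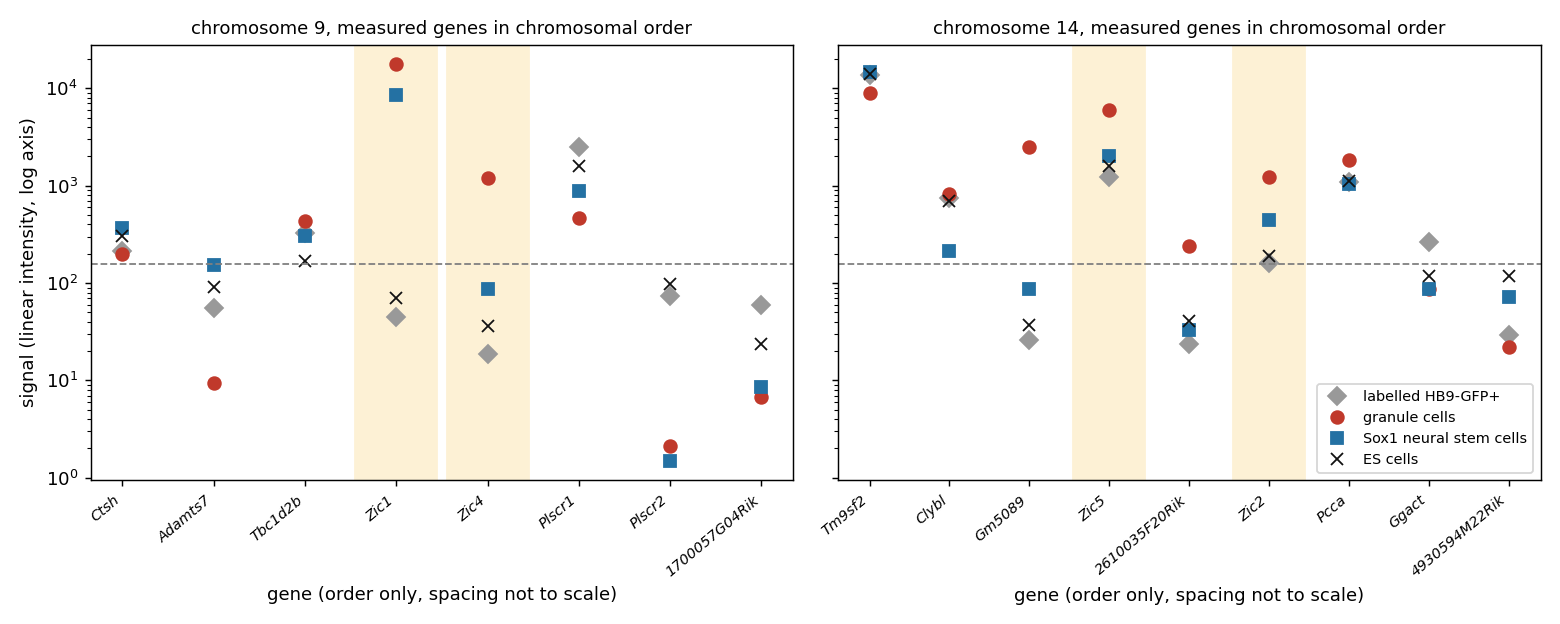
Signals (linear intensity on a log axis) of the Zic genes, shaded, and the nearest measured genes in chromosomal order, with 1 marker per array and a dashed line at the detection level of 157.5. On chromosome 9 Zic1 is far over the line in granule and Sox1 cells only, while Plscr1 is over it on all 4 arrays, and on chromosome 14 Gm5089 and 2610035F20Rik pass it in granule cells only.

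Profiles were compared by the distance between log2 signals, each gene centred on its own mean over the 4 arrays, among 11567 detected genes outside the family. Zic2 and Zic5 were the closest members, at 0.80 log2 units, with 317 other genes closer to Zic2 and 694 closer to Zic5. The Zic1 and Zic4 profiles lay 5.58 apart, with 901 genes closer to Zic1 and 11126 closer to Zic4. The couple on chromosome 14 was thus closer than that on chromosome 9, by a measure that counts the size of differences. Zic1 also lay 5.18 from Zic2 and 5.98 from Zic5, so its distance was not particular to Zic4. Zic4 lay 1.66 from Zic2 and 1.74 from Zic5, with 537 and 586 genes closer to Zic4. In these pairs 2170 genes were closer to Zic2 and 3921 closer to Zic5.

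The genes closest to Zic1 were Fabp7, Zfp521, Insm1, Ednrb and Gpm6b. Fabp7, a lipid carrier of radial glia, was nearest at a distance of 1.16, with 47.9 on the array labelled HB9-GFP+, 17695 in granule cells, 21466 in Sox1 cells and 43.7 in ES cells. Insm1, a zinc finger factor of neurogenic progenitors, read 26.6 on the array labelled HB9-GFP+, 10844.2 in granule cells, 3089 in Sox1 cells and 16.9 in ES cells. Each of the 5 was called higher in both granule and Sox1 cells than in ES cells, as Zic1 was. In all, 242 genes, or 2.09% of the 11571 detected on any array, shared the calls of Zic1 in the 6 comparisons.

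The genes closest to Zic4 were Prr18, Tnr, 9630013A20Rik, Unc13c and Grm3, at distances of 0.10 to 0.18. Tnr, the matrix glycoprotein tenascin-R, read 1 on the array labelled HB9-GFP+, 1231.7 in granule cells, 14.7 in Sox1 cells and 2.4 in ES cells. Unc13c, a synaptic vesicle priming factor of cerebellar granule cells, read 42.1 on the array labelled HB9-GFP+, 1074.3 in granule cells, 24.7 in Sox1 cells and 41.8 in ES cells. These profiles sit at or near the low level on 3 arrays, so their likeness rests on the granule signal. The calls of Zic4 were shared by 432 genes, 3.73% of those detected.

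The genes closest to Zic2 were Zfp46, Tmcc2, Ppm1e, Prkg1 and Shisal1, at 0.17 to 0.21, and those closest to Zic5 were Zfp821, Sirpa, Pik3r1, Xpo4 and Hmgcll1, at 0.11 to 0.16. Zfp46, a zinc finger gene, read 269.7 on the array labelled HB9-GFP+, 1846.8 in granule cells, 768.7 in Sox1 cells and 290.4 in ES cells. Pik3r1, the regulatory subunit of phosphoinositide 3-kinase, read 200.1 on the array labelled HB9-GFP+, 1006.6 in granule cells, 317.4 in Sox1 cells and 234.4 in ES cells. By Pearson correlation over the same 4 arrays, 0 of the 5 genes nearest Zic1, Zic4 and Zic5 and 1 of those nearest Zic2 stayed among the nearest 5, so these names depend on the measure. Shared calls numbered 192 genes for Zic2 and 174 for Zic5.

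**Figure D4:**
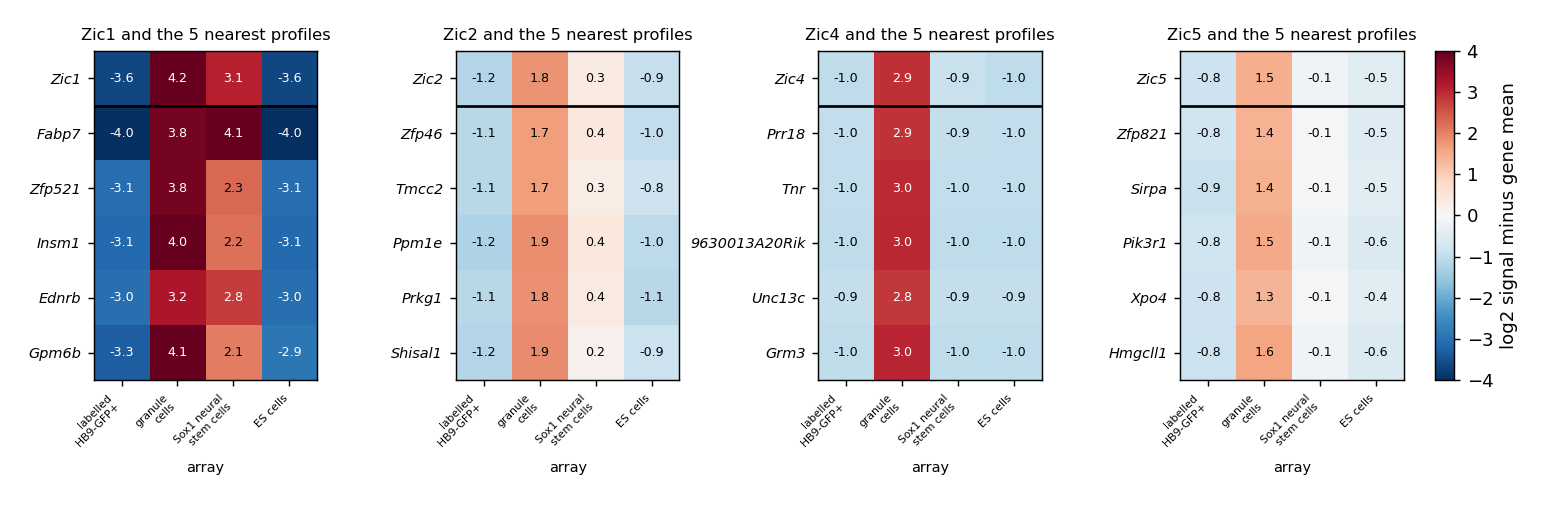
Log2 signal minus each gene's mean over the 4 arrays, with low values at the low level, for each Zic gene (top row) and the 5 genes with the nearest profile. Red is over and blue under the gene's own mean, and the Zic1 panel is high in granule and Sox1 cells while the Zic4 panel is high in granule cells alone.

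Genes of the settings in which Zic factors act were read from lists. The GLI and GLIS relatives are zinc finger factors, of which Gli1 to Gli3 answer hedgehog, and their members differed in pattern. In granule cells against ES cells 0 of 4 detected were called in either direction. The median log2 difference was 0.48 over all 6 measured, which takes in the undetected ones at or near 0. Gli1 read 262.3 in granule cells, 138.9 in Sox1 cells and 44.1 in ES cells, and Gli2 read 2780.9 in granule cells, 2135.6 in Sox1 cells and 1068 in ES cells. Gli2 had the order granule, Sox1 and ES of Zic1, Zic2 and Zic5. Gli1 was under the detection level in Sox1 and ES cells, as was Zic4, and neither Gli1 nor Gli2 was called. For Gli1 the ES signal was under the low level, so its fold against ES cells is a lower bound. On the array labelled HB9-GFP+ Gli2 read 1457.4, over ES cells, unlike Zic2 and Zic5, and Gli1 read 54.3, under the low level. In Sox1 cells against ES cells 2 of 4 were higher, Gli3 at 10.4-fold (4394.7 in Sox1 cells, 421.1 in ES cells) and Glis3 at least 5.52-fold. Gli3 and Glis3 were lower in granule than in Sox1 cells, Gli3 by 5.35-fold, where each Zic gene had its higher signal in granule cells.

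The granule neuron lineage list had 12 of 14 detected genes higher and 1 lower in granule cells against ES cells. Atoh1, the proneural factor of granule precursors, was at least 7.91-fold higher, at 623.3 in granule cells and 57 in ES cells, and was undetected in Sox1 cells at 47, as was Zic4. Neurod1, a neuronal differentiation factor, was 22.4-fold higher and Pax6, a homeodomain factor of granule precursors, 28.4-fold. In Sox1 cells against ES cells 7 of 10 were higher and 0 lower, among them Pax6 at 13.8-fold and Insm1 at least 39.2-fold. In granule cells against Sox1 cells 9 of 14 were higher and 1 lower, the lower one being the homeodomain factor Meis2 at 65.2 in granule cells and 10527.4 in Sox1 cells. On the array labelled HB9-GFP+ 12 of 14 were lower than on the granule array and 0 higher, and 0 of 5 differed from ES cells.

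Of the dorsal neural tube and roof plate genes, 2 of 5 were higher in granule cells than in ES cells, Atoh1 and Pax3, and 0 lower. Pax3, a factor of dorsal progenitors and neural crest, read 28.4 on the array labelled HB9-GFP+, 531.7 in granule cells, 874.8 in Sox1 cells and 45.4 in ES cells. It was at least 6.75-fold higher in granule cells and at least 11.1-fold higher in Sox1 cells than in ES cells, high on the same arrays as Zic1. The roof plate ligand gene Wnt1 was undetected on all 4 arrays, at 99.2 in Sox1 cells, while Wnt3a was at 161.8 in Sox1 cells, just over detection.

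The forebrain midline and holoprosencephaly list was split. In granule cells against ES cells 2 of 11 were higher and 5 lower, the lower ones led by Tdgf1, the Nodal co-receptor, at least 224.1-fold. In Sox1 cells against ES cells 3 of 12 were higher, the hedgehog co-receptors Gas1 at 22.4-fold and Boc at 6.82-fold with the ligand Shh at least 9.63-fold, and 2 were lower, Tdgf1 and Nodal. Among genes of the exit from naive pluripotency, 4 of 9 were higher and 0 lower in Sox1 cells against ES cells, and 2 of 8 higher and 4 lower in granule cells against ES cells. The Sox factor Sox11 was higher in both, at 12513.3 in granule cells, 9555.6 in Sox1 cells and 141 in ES cells. Neural crest genes had 3 of 7 higher and 1 lower in granule cells against ES cells, with Tfap2b at least 18.4-fold higher, and 2 of 6 higher and 0 lower in Sox1 cells.

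**Figure D5:**
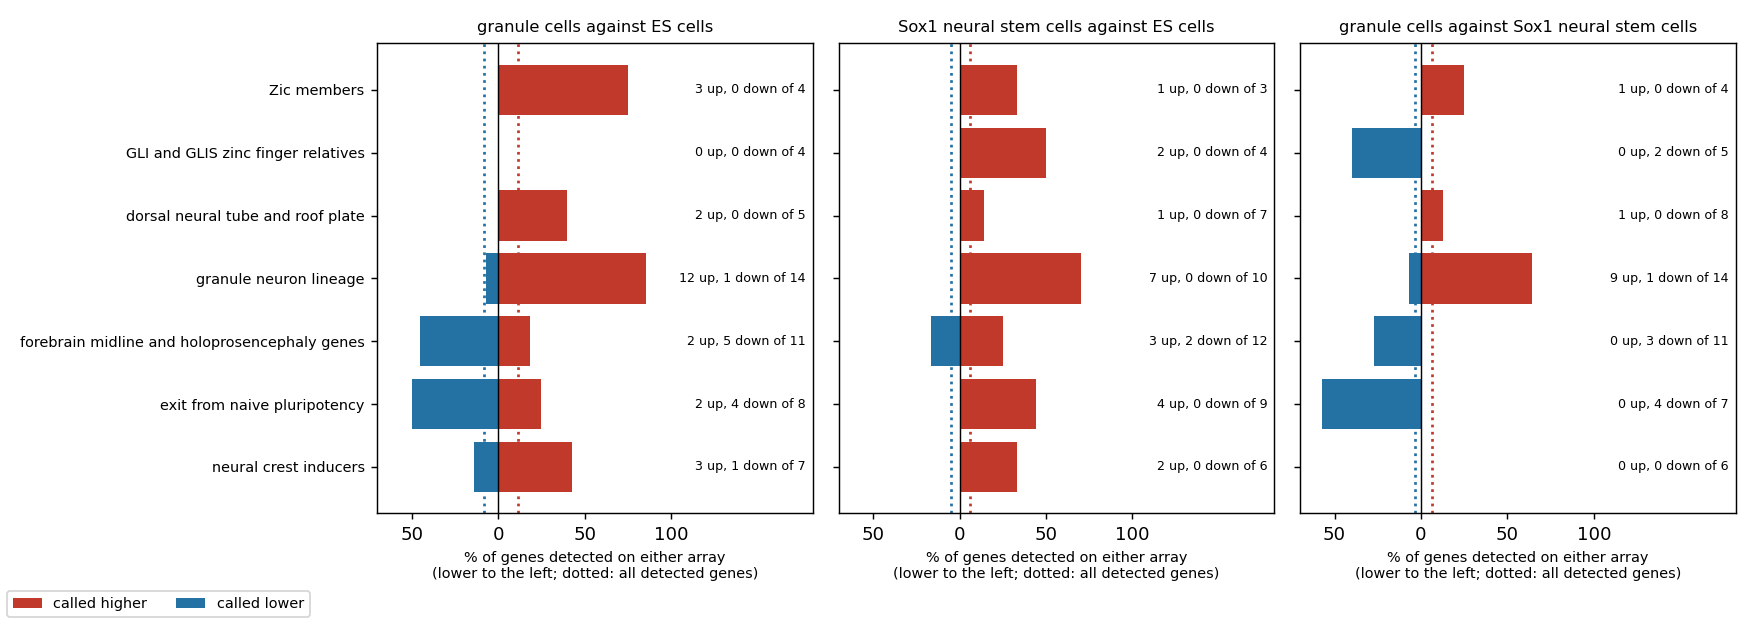
Share of genes called higher (right) or lower (left), as a percentage of the list's genes detected on either array, for the Zic genes and 6 lists in 3 comparisons, with counts beside each bar. Dotted lines give the shares over all detected genes. The granule lineage list has 12 of 14 higher in granule against ES cells, and the GLI and GLIS list has bars on the lower side in granule against Sox1 cells, where the Zic genes have none.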

How the data were processed

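The deposited table holds linear intensities with 1 decimal, from 0.1 to 43110.3, per probe set and array. Per the submitters' processing notes, GCRMA was used, without a version. The values are linear and each array's mean, after trimming 2% at each end, was 500.0, so the step that made these deposited intensities is uncertain. Scaling to a common mean hides differences in total RNA. Total counts do not apply, and no detection flags were used.

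Samples were grouped by title. Probe sets were named by the platform's annotation table, in which 34945 had 1 symbol and 932 several, while 9224 had none or were the array's own controls. A gene was represented by the probe set with the highest mean log2 signal. The 6 comparisons used a rule of size with no test, since each group had 1 array. Spread was taken from probe sets of the same gene. Members, lists and rules were chosen with earlier results of these data known. The named genes are the members, the 5 nearest profiles of each, up to 4 called genes per list and comparison, and neighbours and list genes named after their values were seen (Wnt1, Wnt3a, Pcca, Gm5089, 2610035F20Rik and the marker genes). The rule was run on simulated data, with changes larger than the threshold planted in bright genes only and noise smaller than the spread among probe sets. That run cannot show how the rule performs near the low level or the threshold. Python 3.11.15, numpy 2.4.6 and pandas 2.3.3 were used.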

Additional observations from a re-analysis of the deposited data

How the results depend on the processing

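The calls were repeated under the planned settings and under 1 chosen after seeing the data, which left out the array labelled HB9-GFP+. No sign of a called difference turned in any of them, and leaving out that array changed no count of members called or detected. With the low level 1 log2 unit higher, 1 member was detected under the label HB9-GFP+ and 1 in ES cells, and with it 1 unit lower 4 were detected in Sox1 cells, Zic4 included. With centring on reference genes, 2 members were higher in granule than in Sox1 cells and 1 was detected on the array labelled HB9-GFP+. At a 2-fold threshold, 2 members were higher in Sox1 than in ES cells, 4 were higher in granule than in Sox1 cells, and 2 were lower on the array labelled HB9-GFP+ than in Sox1 cells. The shares over all genes given above are those at 4-fold, and more genes pass at 2-fold. Of all detected genes, 14.2% rose at least as far as Zic2 from ES to Sox1 cells. In granule against Sox1 cells 16.8% were higher by at least as much as Zic1, the smallest of the 4 differences. On the array labelled HB9-GFP+ 11.5% were lower than in Sox1 cells by at least as much as Zic2. At an 8-fold threshold, 2 were lower on the array labelled HB9-GFP+ than in granule cells, and 2 were higher in granule than in ES cells, without Zic2. With the mean or the median over probe sets, Zic4 differed by 2.15 on the log2 scale between granule and ES cells. Zic5 passed 4-fold between granule and ES cells with quantile normalization (2.07 on the log2 scale) and with centring on reference genes (2.45).

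Centring on reference genes moved the median of all detected genes to 0.49 in granule cells against ES cells, -0.61 on the array labelled HB9-GFP+ against granule cells and 0.45 in granule against Sox1 cells. In these comparisons 75.5%, 21.2% and 80.3% of calls then lay on the higher side, against 57.8%, 42.7% and 63.6%. On the array labelled HB9-GFP+ against ES cells that share was 47.7% with that centring and 67.9% with quantile normalization, against 57.7%. No paired analysis was possible because each group had 1 array. Without replicates or detection flags, differences near the threshold and signals near detection, such as those of Zic2 in ES cells and under the label HB9-GFP+, cannot be told from array error.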
